A study of Homo sapiens with 6 samples.

Results

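The ZNF genes are a large group of human genes named for zinc finger proteins, and their splicing was read here in HEK293A-TOA cells, a derivative of the HEK293 human embryonic kidney line, after knockdown of SFSWAP. Members were all events in the retained intron and skipped exon tables whose gene symbol was ZNF followed by digits alone and whose junctions averaged 20 or more reads in a library. This gave 81 introns in 49 genes, of 21158 intron events in the whole series, and 1477 skipped exon events on 1190 different exons in 267 genes, of 153168 exon events on 116235 exons. Chromosome 19 held 15 of the member introns, in 13 genes, and 491 of the member exons, in 130 genes. Other chromosomes held 66 introns in 36 genes and 699 exons in 137 genes.

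The siSFSWAP group was 3 cultures, labelled as biological replicates, transfected with a mixture of 2 siRNAs against SFSWAP at 40 nM, and the siNT group was 3 such cultures given a non-target siRNA. Cells of both groups were split the next day, grown for 4 more days without any inhibitor, and polyadenylated RNA was sequenced. Both groups are of a single cell line. The measure is inclusion, the percentage of spliced and unspliced forms that contain the intron or exon, from the junction reads of each form divided by its effective length, and a change in inclusion is siSFSWAP minus siNT in percentage points.

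Most ZNF genes encode proteins with tandem C2H2 zinc fingers, each of which folds around a zinc ion and contacts a few bases of DNA. Many of them also carry a KRAB domain, encoded by exons upstream of the fingers, which recruits TRIM28 (KAP1) and through it SETDB1, HP1 proteins and histone deacetylases to silence transposable elements and other loci. The human genes arose by repeated tandem duplication and lie in clusters, above all on chromosome 19. A cassette exon that carries the KRAB domain can therefore be present in or absent from a transcript that still contains the finger exons. Skipping it keeps the reading frame of the fingers only if its length is a whole number of codons. Few of the KRAB exons described below had such a length.

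The symbol rule did not pick only DNA-binding factors. Of the 219 ZNF genes with a tested event, 132 had a KRAB pattern without a SCAN pattern in their annotated protein, 79 had C2H2 fingers alone, 4 had a SCAN pattern, 1 had both KRAB and SCAN patterns and 3 had none of these. The patterns are strict and miss diverged boxes. ZNF213, known to carry SCAN and KRAB domains, matched neither of these patterns. ZNF641, known to carry a KRAB domain, did not match the KRAB pattern. Both are counted among the 79, so that group includes genes with such domains. On chromosome 19, 89 of 106 genes had the KRAB pattern without SCAN, and on other chromosomes 43 of 113 did. The median number of fingers was 12 on chromosome 19 and 8 elsewhere. Several members work outside transcription: ZNF598 is a ubiquitin ligase that acts on collided ribosomes, ZNF207 (BuGZ) binds the spindle checkpoint protein BUB3, ZNF622 and ZNF593 take part in ribosome biogenesis, and ZNF185 is a LIM domain protein of the actin cytoskeleton.

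SFSWAP itself, in spliced reads summed over its exons, had 34.67, 34.63 and 21.32 CPM (reads scaled to the library's total) in siSFSWAP libraries a, b and c, against 79.69, 86.47 and 80.18 CPM in siNT libraries a, b and c. Its log2 change was -1.46 ± 0.16 (SE; adjusted p = 3.53e-04, limma), which left 36.8% of the siNT level. The libraries had between 2767079 and 7465949 reads in the intron table and between 19515010 and 55274283 in the exon table, and siNT library a was the deepest in both. That library also stood apart from the other siNT libraries in splicing: over all 10155 tested introns its mean inclusion was 2.73 points below the mean of siNT b and c, and over the ZNF introns 2.80 points below. The part of this library in each result was not tested, and counts are given with and without it. Of the HEK293 markers VIM, KRT8, KRT18, CDH2 and LIN28B were present in every library, while NEFL, NEFM and PAX2 were not listed; of 7 markers of other cell types only COL1A1 was listed, at 0.371 to 0.514 CPM.

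The exons on which the ZNF results turn are shown first, so that the cassette and its splice sites can be seen beside the values. In the lines that follow, capitals mark the exon, with 20 intron bases before it and 10 after it in lower case, on the transcribed strand of GRCh38. ZNF213, ZNF655 and ZNF76 carry coding exons that rose in siSFSWAP, ZNF641 a coding exon that fell, and ZNF207 the exon with the smallest adjusted p of any ZNF event.
ZNF213: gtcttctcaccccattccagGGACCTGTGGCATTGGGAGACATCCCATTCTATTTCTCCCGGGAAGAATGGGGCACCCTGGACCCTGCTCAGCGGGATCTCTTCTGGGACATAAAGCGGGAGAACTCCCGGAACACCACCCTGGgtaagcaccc
ZNF655: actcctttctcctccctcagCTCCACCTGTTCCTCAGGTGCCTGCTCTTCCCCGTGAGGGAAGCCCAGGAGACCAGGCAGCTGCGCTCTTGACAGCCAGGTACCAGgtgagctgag
ZNF76: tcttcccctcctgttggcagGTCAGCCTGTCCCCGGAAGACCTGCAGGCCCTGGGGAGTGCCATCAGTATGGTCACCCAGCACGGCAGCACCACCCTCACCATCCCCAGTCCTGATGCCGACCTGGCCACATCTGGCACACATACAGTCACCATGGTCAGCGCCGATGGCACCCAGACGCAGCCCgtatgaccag
ZNF641: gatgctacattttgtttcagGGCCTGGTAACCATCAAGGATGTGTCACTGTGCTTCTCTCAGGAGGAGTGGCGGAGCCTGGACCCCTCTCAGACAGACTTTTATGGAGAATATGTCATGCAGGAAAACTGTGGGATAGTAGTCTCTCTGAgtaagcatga
ZNF207: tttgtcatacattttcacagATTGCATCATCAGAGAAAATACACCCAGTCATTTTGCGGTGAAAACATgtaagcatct
These are exon 5 of 6 of ZNF213 (chr16:3138975-3139098, plus strand, 58.9% GC), exon 3 of 6 of ZNF655 (chr7:99561888-99561973, plus, 64.0% GC), exon 12 of 14 of ZNF76 (chr6:35293751-35293915, plus, 64.9% GC), exon 4 of 6 of ZNF641 (chr12:48345345-48345474, minus, 50.8% GC) and exon 6 of 12 of ZNF207 (chr17:32361468-32361515, plus, 37.5% GC). Each lies between AG and GT. The 20 intron bases before the exon held 15 pyrimidines in ZNF213, 17 in ZNF655, 15 in ZNF76, 12 in ZNF641 and 13 in ZNF207.

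Among cassette exons, 745 member exons in 215 genes had enough reads of both forms to be tested, 314 of them on chromosome 19 and 431 elsewhere. In siSFSWAP 16 of them were called higher, or 2.15%, and 4 were called lower, or 0.537%, where a call needs a change of 20 points or more and a Benjamini-Hochberg adjusted p no higher than 0.05. Over all 43370 tested exons 1.31% were called higher and 0.696% lower. The 20 calls fell in 11 genes and 12 separate regions, since alternative splice sites list 1 cassette several times and its forms then share skipping reads. The median change was 0.80 points over the ZNF exons and 0.24 points over all exons, and the change was above 0 for 447 of the 745 ZNF exons and for 56.7% of all exons. The 1477 member events included 599 that could not be tested, 118 with too few inclusion reads and 481 with too few skipping reads.

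**Figure D1:**
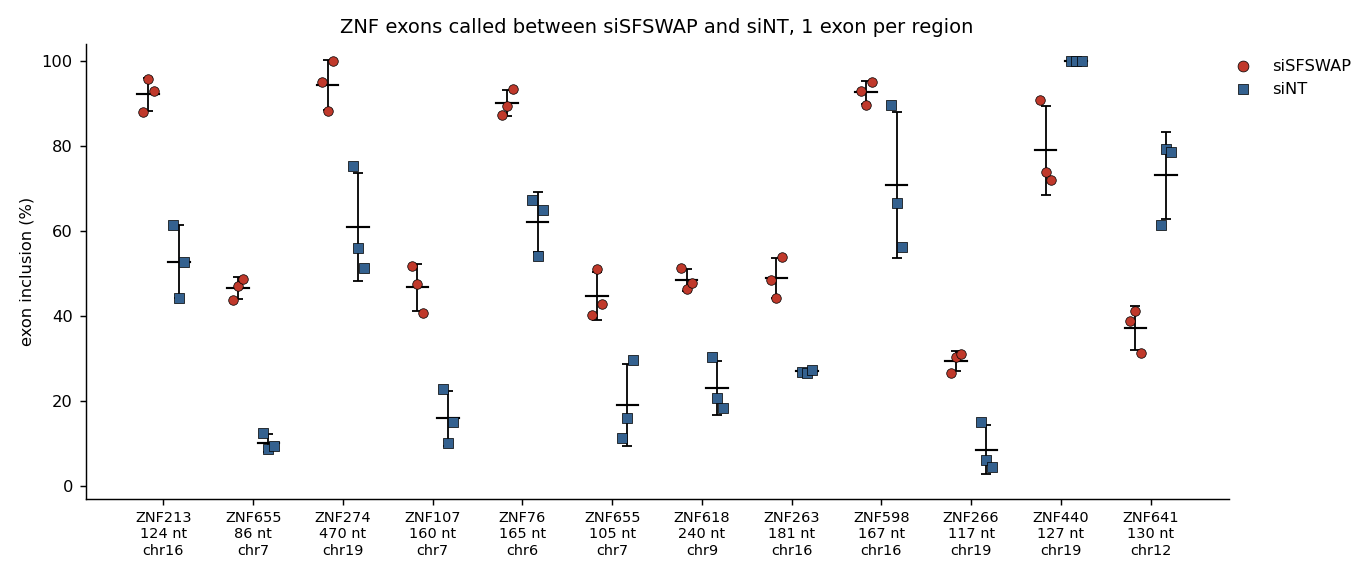
Inclusion in percent (vertical axis) of the ZNF exon with most reads in each of the 12 called regions, by gene, exon length in nucleotides (nt) and chromosome. Points are libraries, siSFSWAP as circles and siNT as squares, with the mean and SD; 10 regions were higher in siSFSWAP and 2, in ZNF440 and ZNF641, were lower.

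The clearest rises were in ZNF213 and ZNF655. The 124-nt coding exon of ZNF213, a factor with SCAN and KRAB domains, was included at 88.0, 95.7 and 92.9% in siSFSWAP, against 61.4, 44.3 and 52.7% in siNT. The libraries of the groups did not overlap, and the change was 39.4 points (92.2 ± 3.9% in siSFSWAP and 52.8 ± 8.5% in siNT, SD, n = 3 each; adjusted p = 5.05e-04, quasi-binomial test over all exons). A listed 394-nt form spans this exon, the intron before it and the whole exon before that intron. It rose by 47.0 points (adjusted p = 1.94e-04) on partly the same reads. Its junction reads lie at its outer ends and do not show whether the intron was kept. That 156-nt intron, between coding exons, had inclusion of 9.5, 23.1 and 11.1% in siSFSWAP, against 21.9, 39.1 and 20% in siNT, and was not called (adjusted p = 0.414, mean of 20.5 reads per library). The 86-nt coding exon of ZNF655, a KRAB gene, had 43.7, 47.1 and 48.8% in siSFSWAP, against 12.5, 8.6 and 9.3% in siNT, a rise of 36.4 points (adjusted p = 7.04e-05). The 2 called exons of ZNF213 and this exon of ZNF655 were the only 3 of the 20 called exons that were called in each of the 6 fits that left out 1 library.

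A second coding exon of ZNF655 rose as well. This 105-nt exon had 40.3, 51.0 and 42.9% in siSFSWAP, against 11.3, 16.1 and 29.7% in siNT, a change of 25.7 points (adjusted p = 0.0050). Its call was lost without siSFSWAP b or siSFSWAP c, with an adjusted p up to 0.0561. The 394-nt intron directly after the 86-nt exon was retained at 42.6, 33.3 and 27.3% in siSFSWAP, against 49.4, 52.9 and 54.5% in siNT; its groups did not overlap, but the change of -17.9 points was not called (adjusted p = 0.316). ZNF655 was also among the ZNF genes with higher spliced reads, with a log2 change of 0.81 ± 0.15 (SE; adjusted p = 0.0029, limma).

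Further coding exons rose in ZNF76, ZNF618 and ZNF263. ZNF76, the paralogue of the snRNA and selenocysteine tRNA gene activator ZNF143, included its 165-nt exon at 87.3, 89.5 and 93.3% in siSFSWAP, against 67.2, 54.1 and 65.0% in siNT, a rise of 27.9 points (adjusted p = 0.0122). Forms of 178 and 135 nt that begin at the same position rose by 41.1 and 40.7 points (adjusted p = 0.0173 and 0.0189) with a mean of 24 and 23.8 reads per library. For the 178-nt form, 1 of 5 fits without a library kept the call, with an adjusted p up to 0.115, and for the 165-nt form only those without siNT a and without siNT c did (up to 0.103). ZNF618 is a chromatin protein that binds UHRF2 and 5-hydroxymethylcytosine. Its 240-nt exon, exon 11 of 15, had 51.4, 46.2 and 47.8% in siSFSWAP, against 30.3, 20.6 and 18.4% in siNT, a change of 25.4 points (adjusted p = 0.0105). The call was lost without siSFSWAP a, siSFSWAP c or siNT b, with an adjusted p up to 0.0917. The 181-nt exon 2 of 6 of ZNF263, which binds a guanine-rich motif, had 48.6, 44.3 and 53.9% in siSFSWAP, against 26.9, 26.7 and 27.3% in siNT, a change of 22.0 points (adjusted p = 0.0042), and only the fit without siSFSWAP c lost the call (19.5 points, adjusted p = 0.0699).

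Rises were also called in ZNF107, ZNF274 and ZNF266. The 160-nt exon of ZNF107, in its 5′ UTR, had 51.7, 47.6 and 40.7% in siSFSWAP, against 22.9, 10 and 15% in siNT, a change of 30.7 points (adjusted p = 0.0170, mean of 29.8 reads). On chromosome 19 a 470-nt exon of ZNF274, which binds the 3′ ends of other ZNF genes and recruits SETDB1 there, had 95.0, 88.2 and 100% in siSFSWAP, against 75.3, 55.9 and 51.4% in siNT, a change of 33.5 points (adjusted p = 0.0229). Its annotated 113-nt form, exon 6 of 8, rose by 17.9 points (adjusted p = 0.0232). The ZNF107 and ZNF274 calls were kept only in the fit without siNT a, and the highest adjusted p without a library was 0.0897 and 0.141. ZNF266, also on chromosome 19, is named after its values were seen. Its 117-nt exon had 26.6, 30.2 and 31.0% in siSFSWAP, against 15.1, 6.1 and 4.5% in siNT, a change of 20.7 points (adjusted p = 0.0182), and an 81-nt form rose by 20.1 points (adjusted p = 0.0244). Without a library both calls were kept only when siNT a was left out (adjusted p up to 0.1002 and 0.126).

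In ZNF598, 3 forms that share a splice site with coding exon 12 of 14 were called higher. The form at chr16:1998965-1999121, which shares a splice site with each of these 3, rose by 13.8 points (adjusted p = 0.0273) and was not called. It passed the adjusted p only in the fit without siNT a (up to 0.216 without a library). The 27-nt form had 80.8, 75.9 and 86.8% in siSFSWAP, against 75.1, 44.9 and 34.9% in siNT, a change of 29.5 points (adjusted p = 0.0198). The siNT libraries thus disagreed: siNT a was within 1 point of the lowest siSFSWAP library, and siNT b and c were far below. The 167-nt form, with a mean of 281 reads, overlapped between the groups, at 93.0, 89.6 and 95.2% in siSFSWAP against 89.7, 66.6 and 56.2% in siNT. Without siNT a the 27-nt form changed by 41.3 points (adjusted p = 6.69e-07), and in each of the other fits that left out a library the call was lost, with an adjusted p up to 0.164. Among the 16 exons called higher, siNT a was the highest siNT library in 14.

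Coding exons of ZNF440 and ZNF641 were called lower. ZNF440, in a chromosome 19 cluster, had its KRAB exon in every siNT junction read. The 127-nt form, exon 2 of 4 (chr19:11830283-11830409), was included at 90.9, 73.9 and 72.0% in siSFSWAP, against 100% in each siNT library. The siNT libraries had 0 skipping reads of 177 for this exon, which allows a skipping share of up to 1.69% of reads. The change was -21.1 points (adjusted p = 0.0085). A tested event needs 5 skipping reads over the 6 libraries, and this exon had them only in siSFSWAP. A fall was thus the only change it could show. Forms of 126 and 136 nt changed by -36.3 and -28.5 points (adjusted p = 0.0062 and 0.0155) on overlapping reads. The median siNT inclusion of the 3 forms was 100%. The 126-nt form lost its call only without siSFSWAP c (adjusted p = 0.0536), the 127-nt form without siSFSWAP b or siSFSWAP c (up to 0.0714), and the 136-nt form in 4 of 6 fits (up to 0.101). The 130-nt exon of ZNF641 was included at 38.9, 41.2 and 31.3% in siSFSWAP, against 61.3, 79.3 and 78.6% in siNT, a change of -36.0 points (adjusted p = 0.0424) with a mean of 26.5 reads, and only the fit without siNT a kept the call (up to 0.201).

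No exon was called by another test. With limma on the log2 odds of inclusion, 0 of the 745 ZNF exons and 0 of the 43370 exons in all were called. At an unadjusted p under 0.05 by this test, 66 of the 745 ZNF exons were higher and 21 lower. Over all 43370 exons 7773 were at that level in either direction, a larger share than among the ZNF exons. The adjusted p by limma was 0.0559 for the 394-nt exon of ZNF213, 0.0683 for the 86-nt exon of ZNF655 and 0.0575 for the 126-nt exon of ZNF440. Under the quasi-binomial test without siNT a, 30 ZNF exons were called higher and 4 lower, of 592 tested, while 3.44% of all exons were called higher and 0.912% lower.

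Beyond the calls, 13 ZNF exons in 8 genes passed the adjusted p with a change under 20 points, 10 higher and 3 lower, so that 33 of 745 passed it in all; over all exons 5.46% did. The exon with the smallest adjusted p of any ZNF event was in this set. The 48-nt exon of ZNF207 printed above had 81.9, 80.5 and 69.7% in siSFSWAP, against 95.8, 95.9 and 95.6% in siNT, with a mean of 546.8 reads per library. The groups were far apart, and the change was -18.4 points (77.3 ± 6.7% in siSFSWAP and 95.8 ± 0.2% in siNT, SD, n = 3 each; adjusted p = 1.27e-06). It passed the adjusted p in each of the 6 fits without a library (up to 3.23e-04). The 93-nt exon 9 of 12 of ZNF207 was lower as well, at 14.9, 12.1 and 9.8% in siSFSWAP, against 23.3, 19.6 and 16.9% in siNT (change of -7.64 points, adjusted p = 0.0028; up to 0.0615 without a library).

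ZNF384, a C2H2 factor fused to other genes in leukaemia, had 4 exons past the adjusted p, and all were higher. Its 183-nt exon 9 of 12, which encodes zinc fingers, had 29.36, 23.02 and 30.77% in siSFSWAP, against 20.25, 12.04 and 5.07% in siNT (15.3 points, adjusted p = 0.0134). Its 48-nt exon 5 had 20.4, 19.8 and 25.2% in siSFSWAP, against 11.3, 5.6 and 4.8% in siNT (14.6 points, adjusted p = 0.0032), and its 93-nt exon 7 rose by 7.57 points (adjusted p = 0.0246). A longer form at chr12:6676787-6677259 overlaps this 93-nt exon and shares a splice site with it, so they are not independent cassettes (7.02 points, adjusted p = 0.0303). By contrast a 173-nt exon of ZNF236 had a change of -16 points (adjusted p = 0.0209). The 183-nt exon passed in 3 of 6 fits without a library (adjusted p up to 0.195), the 48-nt exon in 5 (up to 0.0520), and the 93-nt exon of ZNF384 and the ZNF236 exon in 1 each (up to 0.118 and 0.183).

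Of the exons not called, those with the most reads in ZNF598 and ZNF146 were included almost always in both groups. The 118-nt exon 8 of ZNF598, with a mean of 895.8 reads, was at 98.6 ± 0.5% in siSFSWAP and 98.7 ± 0.5% in siNT (SD, n = 3 each), and the 72-nt 5′ UTR exon of ZNF146 was at 99.8 ± 0.2% in siSFSWAP and 99.9 ± 0.2% in siNT. The third, the 93-nt exon of ZNF207, passed the adjusted p as given above.

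**Figure D2:**
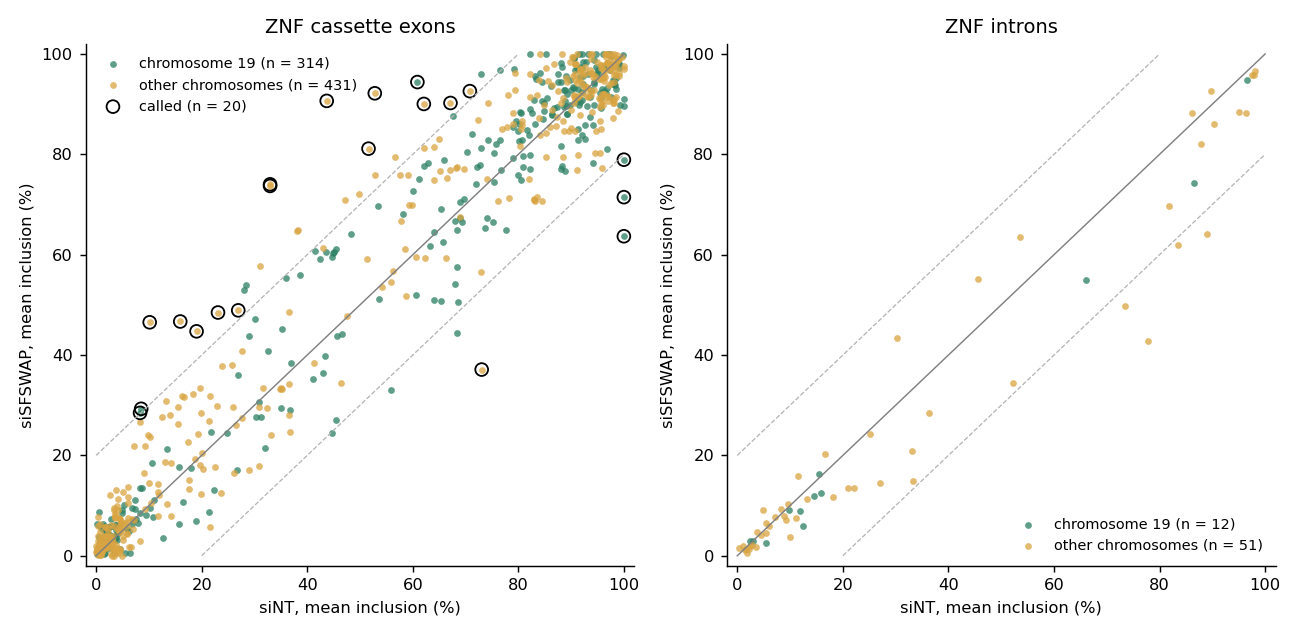
Mean inclusion of each tested ZNF exon (left) and intron (right), with siSFSWAP on the vertical and siNT on the horizontal axis, both in percent over 3 libraries. Dashed lines mark a change of 20 points and rings mark calls; the 16 exons called higher lie above the upper line, the 4 called lower below the lower line, and no intron is ringed.

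On chromosome 19, 3 of 314 exons were called higher and 3 lower (0.955% each), and elsewhere 13 of 431 were called higher and 1 lower (3.02% and 0.232%). The median change was 0.90 points on chromosome 19 and 0.72 points elsewhere. Whether these counts differ was not tested exon by exon, since forms of 1 cassette share reads; the test was made on library means. Mean inclusion over the chromosome 19 exons was 57.6, 57.1 and 56.1% in siSFSWAP, against 56.3, 56.1 and 54.4% in siNT, a difference of 1.33 points with overlapping libraries (exact permutation test, two-sided p = 0.2). Over the exons of other chromosomes it was 50.5, 50.5 and 50.5% in siSFSWAP, against 48.7, 47.6 and 47.6% in siNT, a difference of 2.53 points without overlap (exact p = 0.1, the smallest that 3 against 3 libraries can give). The difference between these differences was -1.20 points (exact p = 0.2). Over all tested exons the mean was 61.8 ± 0.5% in siSFSWAP and 60.9 ± 1.0% in siNT (SD, n = 3 each; exact p = 0.3).

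The count on chromosome 19 changed with the library left out. Without siNT a 592 ZNF exons were tested, 250 of them on chromosome 19. Of these 250, 13 were called higher, against 17 of those elsewhere, while 3.44% of all exons were called higher in that fit. The 13 were not separate cassettes, since ZNF317, ZNF83, ZNF266 and ZNF274 each had overlapping forms among them that share a splice site. Without any other library 0 were called higher on chromosome 19, in fits where 0.351 to 0.697% of all exons were called higher. In the fit without siNT a the added genes on chromosome 19 were ZNF83, ZNF317, ZNF431 and ZNF714, named here after their values were seen. The 124-nt coding exon of ZNF83 had 60.5, 60 and 41.7% in siSFSWAP, against 39.1, 31.6 and 14.3% in siNT (adjusted p = 0.0856 with all libraries and 0.0126 without siNT a). The 96-nt coding exon of ZNF317 had 74.1, 79.4 and 71.6% in siSFSWAP, against 75.6, 53.8 and 54.1% in siNT (adjusted p = 0.245 and 3.66e-04). In ZNF317 siNT a lay among the siSFSWAP libraries.

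The chromosome 19 genes formed 10 clusters of at least 5 ZNF genes with gaps of at most 250 kb, and 3 of these held calls. The cluster at 9.14 to 9.77 Mb had 59 tested exons in 7 genes, with 2 higher exons, both of ZNF266. The cluster at 11.48 to 12.63 Mb had 13 tested exons in 8 genes, with 3 lower, all of ZNF440. The cluster at 57.19 to 58.48 Mb had 27 tested exons in 16 genes, with 1 higher exon, of ZNF274. The cluster with 24 listed genes at 36.19 to 37.78 Mb had 59 tested exons and 0 calls, with a median change of 0.38 points, and the 36 listed genes at 51.86 to 53.57 Mb gave 42 tested exons and 0 calls. Exons of chromosome 19 genes outside the ZNF symbols were called higher in 70 of 2843 cases (2.46%) and lower in 7 (0.246%).

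**Figure D3:**
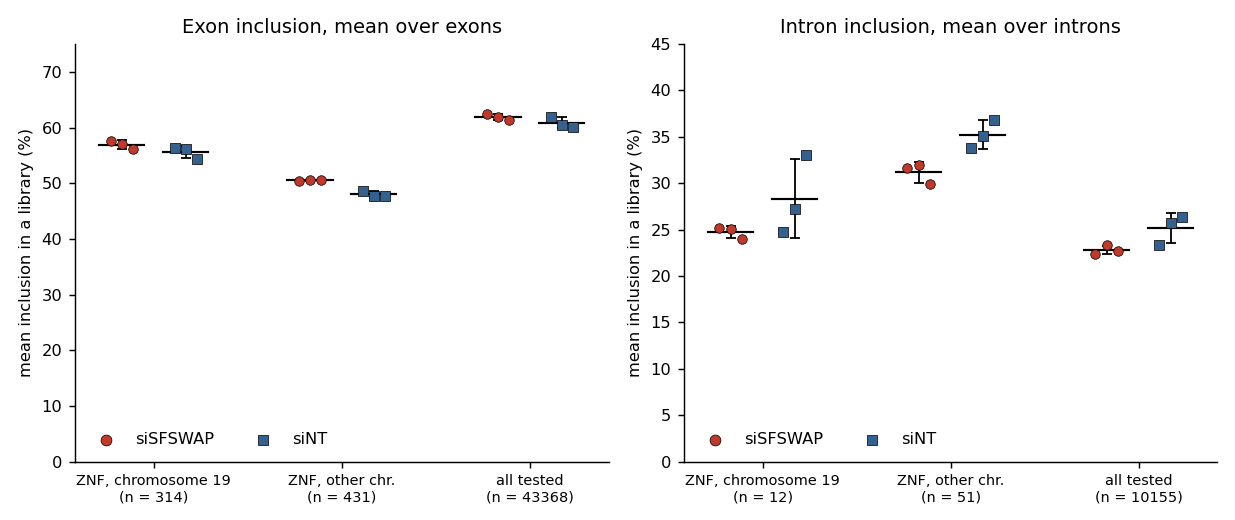
Mean inclusion in each library (percent, from 0) over the ZNF exons (left) and ZNF introns (right) of chromosome 19 and of other chromosomes, and over all tested events. Circles are siSFSWAP and squares siNT libraries, with the mean and SD; only for the exons and the introns of other chromosomes do the groups not overlap.

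The KRAB exon is the most regular feature of these cassettes. Exons of 127 nt made up 7.52% of the tested ZNF exons and 0.659% of all tested exons, and 48 of the 56 such ZNF exons encoded the KRAB pattern, 35 on chromosome 19 and 13 elsewhere. The sequences below show this exon in ZNF440, where it fell, and in ZNF480 and ZNF595, the exons of this kind with the most reads on chromosome 19 and elsewhere; capitals mark bases that are the same in at least 90% of the 48 exons.
ZNF440: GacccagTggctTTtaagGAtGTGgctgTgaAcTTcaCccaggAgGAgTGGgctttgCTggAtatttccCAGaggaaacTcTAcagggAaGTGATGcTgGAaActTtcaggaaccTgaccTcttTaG
ZNF480: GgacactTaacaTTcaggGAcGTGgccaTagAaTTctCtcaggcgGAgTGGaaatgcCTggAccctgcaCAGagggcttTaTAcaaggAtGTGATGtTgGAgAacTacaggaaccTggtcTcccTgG
ZNF595: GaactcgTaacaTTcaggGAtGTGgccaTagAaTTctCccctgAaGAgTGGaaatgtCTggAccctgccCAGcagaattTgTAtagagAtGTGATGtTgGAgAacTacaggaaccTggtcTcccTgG
They lie at chr19:11830283-11830409, chr19:52314153-52314279 and chr4:59430-59556, all on the plus strand. Of 127 positions 45 were conserved in this sense, and pairs of the 48 exons shared a median of 67.7% of bases, from 51.2 to 98.4%. The ZNF440 exon was closest to that of ZNF101 (86.6%). Reads from copies this alike can be hard to place, so values of single KRAB exons are uncertain to that extent.

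Among exons that match the strict KRAB pattern, those called were of ZNF440. Of 76 exons with the KRAB pattern in 51 genes, 0 were called higher and 3 lower, against 1.31% and 0.696% of all exons. Those 3, all of ZNF440, were also the only ones past the adjusted p. They were forms of 1 cassette with a median siNT inclusion of 100%, so only a fall could be seen. Median inclusion of the 76 was 82.8% in siSFSWAP and 82.2% in siNT. Of the 48 exons of 127 nt, 29 were at 80% or more in siSFSWAP, as were 29 in siNT. Changes of these 48 ran from -21.1 to 23.7 points. Of the 76 exons with the pattern 8 had a length divisible by 3, and a length of 127 nt is not. Skipping an exon of 127 nt thus shifts the reading frame, and whether such transcripts yield a protein with fingers was not tested. The ZNF480 exon was at 82.7% in siSFSWAP and 80.2% in siNT, and the ZNF595 exon at 97.3% in siSFSWAP and 97.5% in siNT. Exons that encode C2H2 fingers gave 0 calls among 40, too few exons to tell 0 from the shares over all exons. The pattern does not find every KRAB exon, and the called 124-nt exon of ZNF213 (higher) and 130-nt exon of ZNF641 (lower), in genes known for KRAB domains, did not match it. The calls among exons without the pattern were 6 coding exons higher and 1 lower, these included, 1 higher exon in a 5′ UTR, and 9 higher exons whose exact ends were not annotated in GENCODE release 44.

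The exons called higher had more G and C than the rest. The median GC content was 62.1% for the 16 exons called higher, 49.4% for the 4 called lower and 50% for the 725 not called. At a GC content of at least 60%, 9 of 81 ZNF exons were called higher (11.1%) and 0 lower, and over all tested exons of that GC content 309 of 7600 were called higher (4.07%) and 13 lower. Below 40% GC, 0 of 101 ZNF exons were called, while over all exons 2 of 7150 were called higher and 98 lower. Chromosome 19 had 12 of the 81 GC-rich ZNF exons and 0 of the 9 calls, and its ZNF exons had a median GC content of 48.8%, against 51.6% on other chromosomes and 58.6% for the other exons of chromosome 19. Overlapping forms of ZNF76 and of ZNF598 made up 6 of these 9, so they are not independent cassettes, and whether GC content has a part in the calls was not tested.

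**Figure D4:**
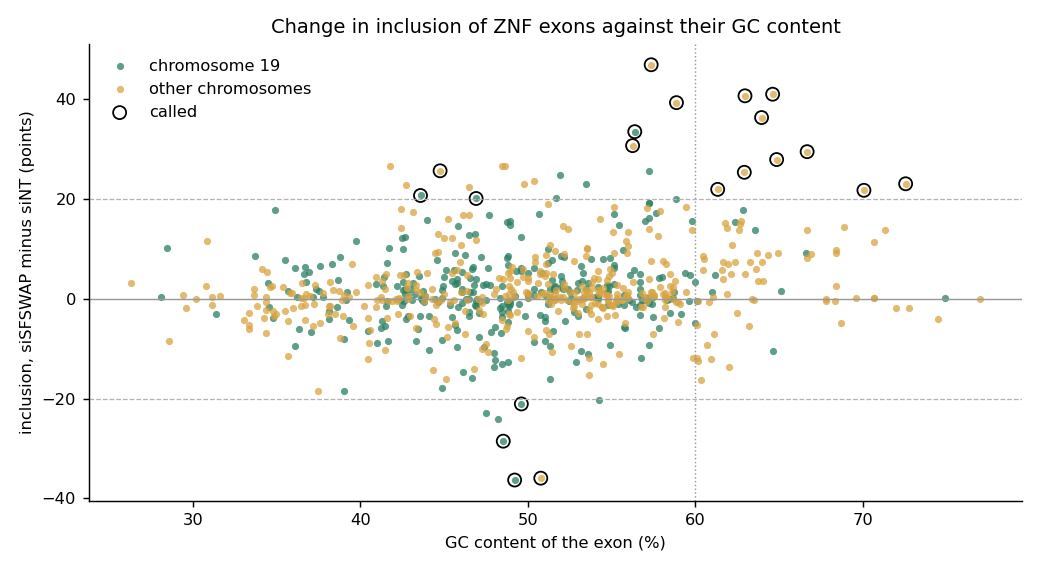
Change in inclusion (siSFSWAP minus siNT, points) of each tested ZNF exon against its GC content in percent, with chromosome 19 and other chromosomes in separate colours and rings for calls. Dashed lines mark 20 points and the dotted line 60% GC; 9 of the 16 exons called higher lie to its right, all on other chromosomes.

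No ZNF intron was called. Of 63 tested introns in 43 genes, 12 on chromosome 19 and 51 elsewhere, 0 were lower and 0 higher, while over all tested introns 1.61% were called lower and 0.148% higher. At an unadjusted p under 0.05 there were 7 ZNF introns, all lower and none on chromosome 19, or 11.1% against 15.8% of all introns; limma on the log2 odds gave 6 at that level and 0 calls. The smallest adjusted p was 0.117. Inclusion was lower in siSFSWAP for 45 of the 63 (71.4%, against 61.2% of all introns), with a median change of -1.64 points against -0.52 points. The 63 are not all independent, since ZNF655, ZNF7, ZNF131, ZNF142, ZNF207 and ZNF598 have overlapping introns that share a splice site and its reads. A further listed intron of ZNF598 is 1 nt long and does not run from GT to AG. The 18 member introns left untested had too few spliced reads to say whether they changed.

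The ZNF692 intron had the lowest p and the largest fall among the 63. It is shown with 15 bases of each flanking exon in capitals, on the transcribed strand (chr1:248855636-248855724, minus, 89 nt, 64.0% GC, between coding exons).
ZNF692: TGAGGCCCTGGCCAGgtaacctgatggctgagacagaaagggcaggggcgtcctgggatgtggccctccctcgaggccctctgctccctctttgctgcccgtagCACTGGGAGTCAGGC
It was retained at 31.5, 55.8 and 41.3% in siSFSWAP, against 60.7, 73.0 and 100% in siNT. The groups did not overlap, but with a mean of 33.7 reads per library the change of -35.0 points gave an adjusted p of 0.117. Without siNT a the change was -43.6 points and was called (adjusted p = 8.56e-04), as was a fall of 31.4 points in a ZNF704 intron (adjusted p = 0.0152), so that 2 of 54 ZNF introns were called in that fit, when 5.25% of all introns were called lower.

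Other introns with an unadjusted p under 0.05 spanned a range of levels. The 4273-nt intron of ZNF197 was retained at 76.9, 53.8 and 61.9% in siSFSWAP, against 93.7, 73.3 and 100% in siNT (-24.8 points, adjusted p = 0.236), and the 76-nt intron of ZNF276 at 10.7, 29.3 and 4.7% in siSFSWAP, against 25.0, 45.9 and 29.1% in siNT (-18.5 points, adjusted p = 0.290). In both genes the groups overlapped. ZNF592, ZNF248 and ZNF107 had changes of -6.29, -12.3 and -23.8 points with overlapping groups (adjusted p = 0.223, 0.295 and 0.261), and a 217-nt intron of ZNF207 had -6.58 points without overlap (adjusted p = 0.316). On chromosome 19 the largest fall was in the 6075-nt intron of ZNF714, at 81.1, 75.9 and 65.8% in siSFSWAP, against 89.1, 82.9 and 87.8% in siNT (-12.3 points, adjusted p = 0.372), with no overlap between the groups.

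The introns with the most reads, taken once per gene, were in ZNF207, ZNF593 and ZNF598. A 144-nt intron of ZNF207, with a mean of 464.3 reads, was retained at 1.3, 2.6 and 1.9% in siSFSWAP, against 0.9, 1.5 and 1.0% in siNT (adjusted p = 0.452). Another intron of ZNF207, of 254 nt and with a mean of 443.8 reads, was retained at 94.8, 94.8 and 98.1% in siSFSWAP, against 97.8, 97.8 and 97.9% in siNT (adjusted p = 0.477), so that levels of retention differed widely within the gene. The 94-nt intron of ZNF593 was at 9.7, 7.3 and 10.7% in siSFSWAP, against 8.1, 8.5 and 8.1% in siNT (adjusted p = 0.762). The 97-nt intron of ZNF598 was at 11.1, 13.5 and 15.9% in siSFSWAP, against 11.9, 22.5 and 28.3% in siNT (-7.39 points, adjusted p = 0.530), again with siNT a among the siSFSWAP libraries; without siNT a its adjusted p was 7.65e-07 at a change of -11.9 points, under the 20 points a call needs.

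Mean retention over the chromosome 19 introns was 25.2, 25.1 and 24.0% in siSFSWAP, against 24.8, 27.3 and 33.0% in siNT, a difference of -3.60 points (exact p = 0.3). Over the introns of other chromosomes it was 31.7, 32.0 and 29.9% in siSFSWAP, against 33.8, 35.1 and 36.8% in siNT, a difference of -4.03 points without overlap (exact p = 0.1, the smallest possible). The difference between chromosome 19 and the others was 0.43 points (exact p = 0.8). Over all tested introns retention was 22.8 ± 0.5% in siSFSWAP and 25.1 ± 1.6% in siNT (SD, n = 3 each; exact p = 0.2).

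Spliced reads per gene changed in few ZNF genes. Of 320 tested, 26 had more in siSFSWAP (8.12%) and 14 had fewer (4.38%), while among all 10780 genes 14.7% had more and 15.6% fewer; the ZNF genes had a median of 5.16 CPM in siSFSWAP and 4.65 CPM in siNT, against 19.5 CPM in siSFSWAP and 19.3 CPM in siNT over all genes. On chromosome 19, 12 of 159 rose and 4 fell, and elsewhere 14 of 161 rose and 10 fell. Such a sum moves both with RNA abundance and with how many junctions a transcript uses, and fewer cells expressing a gene and less RNA per cell cannot be told apart in it. Without siNT a the counts were 60 higher and 37 lower. The share of all genes called in that fit was not computed, so the larger counts cannot be read as particular to ZNF genes.

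ZNF185, on the X chromosome, had 9.59, 12.46 and 12.43 CPM in siSFSWAP, against 4.02, 2.39 and 1.86 CPM in siNT, a log2 change of 1.93 ± 0.23 (SE; adjusted p = 4.47e-04, limma). ZNF133, a KRAB repressor, had 3.82, 4.21 and 5.75 CPM in siSFSWAP, against 2.62, 2.05 and 2.30 CPM in siNT (log2 change 0.84, adjusted p = 0.0078), and ZNF615 on chromosome 19 had 4.74, 6.32 and 7.71 CPM, against 2.76, 3.60 and 3.40 CPM in siNT (0.83, adjusted p = 0.0086). For ZNF345, also on chromosome 19, the log2 change was 1.15 (adjusted p = 0.0178); its lowest siSFSWAP library (2.57 CPM) was next to its highest siNT library (2.56 CPM), and the call was lost without siSFSWAP b, siSFSWAP c or siNT b (adjusted p up to 0.0825). Of the 11 genes with called exons, 2 had higher spliced reads, ZNF655 and ZNF618 (log2 change 0.67 ± 0.13, SE; adjusted p = 0.0035), and 0 had lower. Among all genes 14.7% had more and 15.6% fewer. The sums include junction reads of the called exons, so both measures share reads in these genes.

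The largest fall was in ZNF778, at 4.60, 3.69 and 3.49 CPM in siSFSWAP, against 8.06, 8.38 and 8.49 CPM in siNT (log2 change -1.001 ± 0.16, SE; adjusted p = 0.0013, limma). ZNF622, a factor of large ribosomal subunit maturation, had 15.4, 17.4 and 16.3 CPM in siSFSWAP, against 20.8, 34.7 and 35.9 CPM in siNT (-0.84, adjusted p = 0.0061). ZNF408 and ZNF250 fell by 0.90 and 0.66 on the log2 scale (adjusted p = 0.0138 and 0.0252); ZNF408 lost the call without siSFSWAP a, siNT b or siNT c (up to 0.0657), and ZNF250 without siSFSWAP b, siSFSWAP c, siNT b or siNT c (up to 0.111). ZNF384 and ZNF207, whose exons were described above, also had fewer spliced reads (-0.40 and -0.28, adjusted p = 0.0083 and 0.0280).

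**Figure D5:**
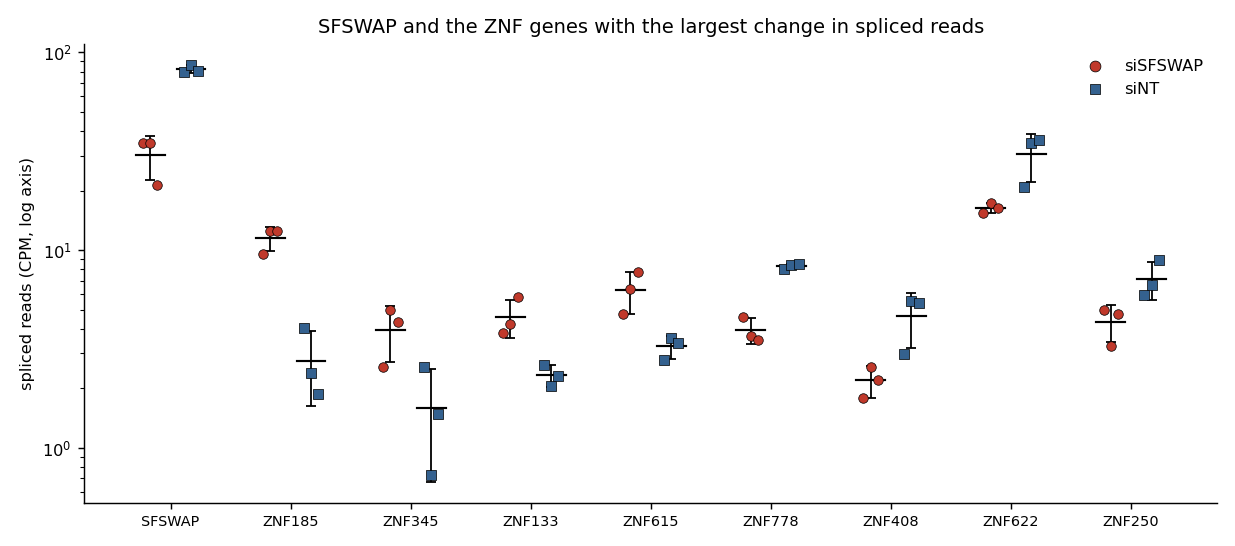
Spliced reads per gene (CPM, log axis) of SFSWAP and of the 4 ZNF genes with the largest rise and the 4 with the largest fall past the threshold. Circles are siSFSWAP and squares siNT libraries, with the mean and SD; SFSWAP was lower in each siSFSWAP library than in any siNT library, as were the 4 ZNF genes that fell.

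The genes through which KRAB proteins silence their targets were read from a list of 27 corepressor and heterochromatin genes. Of their 189 tested exons 5 were called higher (2.65%) and 1 lower (0.529%), against 1.31% and 0.696% of all exons. Of their 70 tested introns 0 were called, against 1.61% lower and 0.148% higher of all introns. An unadjusted p under 0.05 was reached by 9 of the 70 (12.9%, against 15.8% of all introns). In TRIM28, the scaffold that binds KRAB domains, a 133-nt exon had 87.4, 83.4 and 77.9% in siSFSWAP, against 74.0, 38.1 and 35.8% in siNT (33.6 points, adjusted p = 0.0034), and a 487-nt form on the same reads changed alike; the call was lost without siSFSWAP a or siNT b (adjusted p up to 0.147). In HDAC1, a histone deacetylase, a 46-nt exon had 77.1, 64.4 and 61.4% in siSFSWAP, against 98.4, 93.6 and 90.7% in siNT (-26.6 points, adjusted p = 1.84e-04), and this call was kept in each fit without a library. UHRF1, which guides DNA methylation, had 2 higher forms of 1 exon (21.4 and 23.2 points), and GATAD2A, a NuRD subunit, a higher 16-nt exon (24.4 points). Both UHRF1 calls were kept only without siNT a (adjusted p up to 0.105 and 0.0938), and the GATAD2A call was lost without siSFSWAP a or siSFSWAP b (up to 0.121).

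In spliced reads 6 of the 27 corepressor genes rose (22.2%) and 5 fell (18.5%), against 14.7% and 15.6% of all genes, among them HDAC1 (log2 change 0.82, adjusted p = 9.13e-04, limma), DNMT1 (0.64, adjusted p = 8.37e-04) and SETDB1 (-0.41, adjusted p = 0.02004). Zinc finger genes outside the symbol rule had ZFP, ZSCAN, ZKSCAN or ZBTB symbols or a letter after the ZNF number. Of their 22 tested introns 0 were called, against 1.61% lower and 0.148% higher of all introns. An unadjusted p under 0.05 was reached by 7 of the 22 (31.8%, against 15.8% of all introns). Of their 153 tested exons 1 was called, which was higher (0.654%, against 1.31% of all exons). This exon, 94 nt of ZSCAN18 on chromosome 19, had 67.2, 74.1 and 62.7% in siSFSWAP, against 46.9, 33.9 and 24.0% in siNT (33.1 points, adjusted p = 0.0103; kept only without siSFSWAP c or siNT a, up to 0.0781).

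The limit of 20 reads sets which events are members and uses no inclusion value. Just inside it were introns of ZNF197 (20.3 reads) and ZNF213 (20.5) and exons of ZNF692 and ZNF778 (20 each), and just outside it introns of ZNF331 (19.7) and ZNF232 (19.8) and exons of ZNF460 and ZNF316 (19.8 each).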

How the data were processed

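RNA-seq was made from 3 siSFSWAP and 3 siNT cultures. Per the study's methods the authors used cutadapt 1.9.1 for trimming, STAR 2.7 for alignment to GRCh38, and rMATS for events; use of strand was not given in the sources used here. Each deposited cell lists raw junction counts of 3 libraries, with the effective length of each form beside them. The authors' own columns of inclusion levels, p-values, FDR and inclusion differences were not used. The tables number the groups, and siNT was identified from the direction in which the study defines its inclusion difference, with SFSWAP reads as a check. Library letters follow the order in each list.

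Inclusion was computed from counts divided by effective lengths. Events with a mean of 20 reads per library, 5 reads of each form and reads in 2 libraries of each group were tested with a quasi-binomial F test across all events of a table, its dispersion moderated with limma 3.58.1 in R 4.3.3 and floored at 1, with Benjamini-Hochberg adjustment over each table. Each exon was counted once, by its event with most reads. Spliced reads per gene, summed over exon events, were scaled to CPM and tested by limma on log2(CPM + 0.5) over genes with a mean of 20 reads. A count model had been planned for this test but was not run. Sequences and exon places came from GRCh38 with GENCODE release 44 (98.1% of tested introns ran from GT to AG), and protein patterns were searched in translated coding sequences (Python 3.11.15, pysam 0.24.0). Scripts were tested on simulated data.

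Named events were, per table and direction, up to 8 called members with the largest change, 1 per gene, the 3 with most reads among those not called, up to 4 genes per direction in spliced reads, and those beside the read minimum; other events past an unadjusted or adjusted p, and those changed by leaving out siNT a, were named after their values were seen. Members and lists were chosen with earlier results of these data known. Alternatives are given at the end. Limits cover counting error only.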

Additional observations from a re-analysis of the deposited data

How the results depend on the processing

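The ZNF exon counts depended on the test, the read minimum and single libraries. Against 16 exons called higher and 4 lower, a mean of at least 50 reads gave 10 and 1, and limma on log2 odds gave 0 and 0. With at least 50 reads 1.11% of all exons were called higher and 0.639% lower. Leaving out 1 library gave 3 to 30 higher and 0 to 4 lower, with 30 higher without siNT a and 3 without siSFSWAP c. Of the 20 calls 3 to 18 were shared. The counts over all exons moved too, with 0.351 to 3.44% called higher and 0.314 to 0.912% lower in these fits. The share called higher was 3.44% without siNT a and 0.589% without siSFSWAP c. The other settings kept both counts within 1.5 times: every event counted (19 and 4), no minimum for each form, a change threshold of 0.1, no floor on the dispersion and no effective lengths. ZNF introns called lower numbered 0 in all settings other than leaving out 1 library (0 to 2), and higher 0 in all. The 2 were called without siNT a, where 5.25% of all introns were called lower.

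The siSFSWAP minus siNT difference of the introns of other chromosomes, -4.03 points, was -7.79 for introns of 10 to 90% inclusion and -1.76 with at least 50 reads, where chromosome 19 minus others was -2.34. For the exons of other chromosomes, 2.53 points, it was 10.1 as a median over exons, 5.41 for exons of 10 to 90% inclusion and 3.24 with at least 50 reads; chromosome 19 minus others was -8.14 as a median and -3.81 for 10 to 90%. The cause was not tested; 434 of the 745 exons lay under 10% or over 90%. Leaving out a library gave 9 to 60 ZNF genes with higher spliced reads and 5 to 37 with lower, and -1.58 to -1.23 for SFSWAP. Shares over all genes were not computed for these fits. Median-ratio scaling (26 and 14) and limma-voom (18 and 11) were chosen after seeing the data. The count models planned for spliced reads (DESeq2 and edgeR) were not run, and limma was used in their place.

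No paired analysis was possible because the lists carry no replicate numbers that tie a library to the numbered replicates of the labels. Called exons had a mean of 23.8 to 281 reads per library, and the 18 member introns and 599 member exon events with fewer than 5 reads of a form were not testable at this depth.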
